A study of Homo sapiens with 4 samples.

Results

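The genes examined here are 10 transcripts that follow the activity of the kinase ERK and most of which act back on the pathway, namely DUSP4, DUSP5, DUSP6, SPRY1, SPRY2, SPRY4, SPRED1, SPRED2, ETV4 and ETV5. They were named from what is known of the pathway, but with earlier results of these data known, so that counts of them set beside all genes are no independent evidence. The probes of each gene were found by matching the RefSeq accession of the probe to the gene. All 10 genes had at least 1 probe, 14 probes in all among the 41000 on the array, and 9 of the 10 genes had a probe that passed the filter on low signals, which asked for a signal of 100 or more on any of the 4 arrays. The samples were parental SkBr3 and BT474 cells, both human HER2-positive breast cancer cell lines labelled as given vehicle, and 1 lapatinib-resistant clone of each line, SkBr3/Lap and BT474/Lap, made by growing the cells in rising doses of lapatinib up to 1 μM. Each group was 1 RNA sample on 1 array, and each resistant line was a single clone, so a difference between a clone and its parental line carries no check by replicates and cannot be told apart from a trait of the clone that was picked. For its protein blots the paper kept the resistant cells in 1 μM lapatinib, and for the arrays it does not say. Resistance and the presence of the drug therefore cannot be told apart either. The clone numbers in the sample labels and in the paper are interchanged between the lines, so the clones are named here without a number.

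Lapatinib blocks the tyrosine kinases EGFR and HER2, receptors that signal through RAS, RAF and MEK to ERK. Active ERK switches on genes whose products limit the same pathway, so that the level of their transcripts is widely used as a readout of ERK output. DUSP4 and DUSP5 are nuclear phosphatases and DUSP6 a cytoplasmic one that remove phosphate from MAP kinases, the Sprouty proteins (SPRY1, SPRY2 and SPRY4) and the SPRED proteins (SPRED1 and SPRED2) restrain signaling between the receptor and RAF, and ETV4 and ETV5 are transcription factors of the PEA3 group that carry the ERK signal to further genes. ERK can also reach these genes by relieving the repressor CIC.

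In BT474/Lap cells most of the feedback genes were lower than in BT474 cells, and in SkBr3/Lap cells several were higher than in SkBr3 cells. By 2-fold, 6 genes (DUSP4, DUSP6, SPRY1, SPRY4, SPRED1 and ETV4) were lower in BT474/Lap and 0 were higher, while 3 (DUSP5, DUSP6 and SPRY2) were higher and 1 gene (SPRY4) was lower in SkBr3/Lap. SPRY4 was thus lower in both clones, DUSP6 was on opposite sides in the 2 clones, and 0 of the 9 measured genes were higher in both or lower in SkBr3/Lap and higher in BT474/Lap, against 3.09% and 2.34% of all genes. Among all 12159 genes that passed the filter, 5.4% were at least 2-fold lower in BT474/Lap and 9.27% higher, and 14.5% were lower in SkBr3/Lap and 14.2% higher. These counts are a description. Some genes passed the filter through few arrays, since SPRY4 reached a signal of 100 in the 2 parental samples only and ETV4 in SkBr3/Lap only.

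The sequences before the start sites of 4 of these genes are shown because they stand for the 4 patterns past 2-fold found here, DUSP6 with opposite directions, SPRED1 with a lower level in BT474/Lap alone, SPRY2 with a higher level in SkBr3/Lap alone by the 2-fold criterion, and SPRY4 with a lower level in both clones. Each is the 250 bases upstream of a start site of RefSeq (GRCh38.p14), written 5′ to 3′ on the strand of the gene, the plus strand for SPRED1 and the minus strand for the others. The window of DUSP6 is chr12:89352502-89352751, that of SPRED1 chr15:38252586-38252835, that of SPRY2, the one farthest upstream of 3 starts, chr13:80341127-80341376, and that of SPRY4 chr5:142324248-142324497. Capitals mark the PEA3 motif AGGAAG or its reverse complement CTTCCT, the letters that ETV4 and ETV5 are known to bind.
DUSP6: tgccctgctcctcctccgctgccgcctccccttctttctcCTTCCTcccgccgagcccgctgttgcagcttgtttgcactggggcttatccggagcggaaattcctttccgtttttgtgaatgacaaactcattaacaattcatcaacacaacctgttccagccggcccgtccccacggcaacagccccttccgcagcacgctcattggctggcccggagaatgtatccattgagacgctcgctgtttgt
SPRED1: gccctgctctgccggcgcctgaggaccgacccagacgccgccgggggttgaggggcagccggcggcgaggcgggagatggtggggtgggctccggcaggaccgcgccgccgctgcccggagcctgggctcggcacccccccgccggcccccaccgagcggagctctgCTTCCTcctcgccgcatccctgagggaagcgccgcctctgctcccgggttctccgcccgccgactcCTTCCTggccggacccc
SPRY2: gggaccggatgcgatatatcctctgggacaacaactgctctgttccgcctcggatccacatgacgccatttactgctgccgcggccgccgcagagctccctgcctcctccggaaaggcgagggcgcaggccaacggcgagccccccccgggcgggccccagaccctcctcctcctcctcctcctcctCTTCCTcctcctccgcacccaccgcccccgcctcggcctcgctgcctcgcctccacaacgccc
SPRY4: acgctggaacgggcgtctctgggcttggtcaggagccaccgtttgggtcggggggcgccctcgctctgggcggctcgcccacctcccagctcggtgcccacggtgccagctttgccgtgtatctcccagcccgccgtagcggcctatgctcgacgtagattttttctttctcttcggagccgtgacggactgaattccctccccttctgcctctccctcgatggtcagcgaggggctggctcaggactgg
Windows of 6 of the 10 genes (DUSP6, SPRED1, SPRED2, SPRY1, SPRY2 and SPRY4) were counted, 10 windows in all. No window was available for DUSP5, ETV4 and ETV5, and DUSP4 was left out of the count. The motif counts of the feedback genes below therefore say nothing of DUSP4, DUSP5, ETV4 or ETV5. The PEA3 motif stood in 8 of the 10 windows, against 28.7% of the 35116 windows of all genes, and the windows of SPRY4 and of 1 of the 2 starts of SPRY1 held none. The longer ETS motif CCGGAAG stood in 1 window, that of the other start of SPRY1, against 8.52% of all windows. The CIC motifs TGAATGAA and TGAATGGA (1.4% and 0.832% of all windows), the cyclic AMP response element TGACGTCA (1.65%) and the AP-1 motif TGANTCA (6.57%) were in 0 of the 10 windows. Both strands were searched for each motif. The 8 windows with the PEA3 motif belonged to DUSP6, SPRED1, SPRED2, SPRY1 and SPRY2 only. Starts of the same gene were counted as separate windows, so the windows are not independent. GC content of the 10 windows ranged from 39.2% to 78.4%, and a match of letters is not a binding site.

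Values below are signals in percent of the 75th percentile of the probe signals on the same array, so that 100% is a signal at that percentile, and they are compared between arrays for 1 probe, not between probes. The fold changes are on the log2 scale with the error that the scanner software's model gives for the 2 spots. This error covers the spot and the scan, not the spread between cultures. The values of all 14 probes are drawn in the plot of signals by array.

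**Figure D1:**
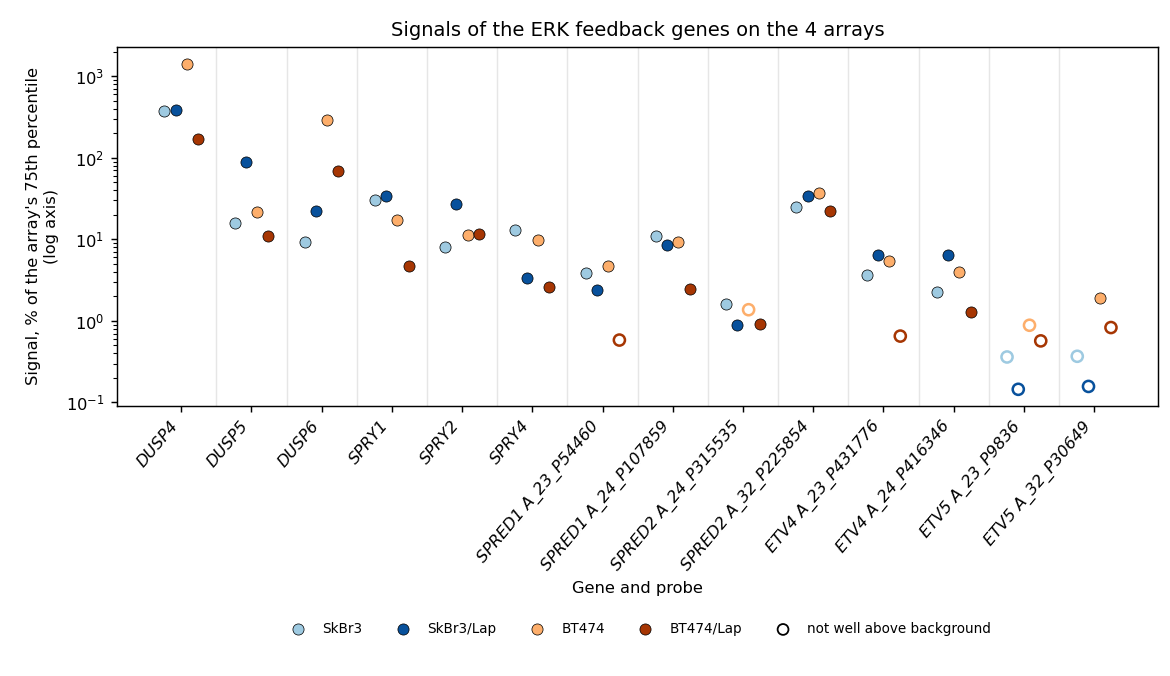
Signal of each of the 14 probes of the 10 ERK feedback genes (x axis) in percent of the 75th percentile of the array, on a log axis (y), with 1 point per array and open points where the signal was not well above background; levels are to be compared within a probe. BT474/Lap is the lowest of the 4 for DUSP4, DUSP5, SPRY1 and SPRY4, among others, and BT474 stands far above both SkBr3 samples for DUSP4 and DUSP6.

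Of the phosphatases, DUSP4 had a level of 373% in SkBr3 and 386% in SkBr3/Lap, against 1432% in BT474 and 172% in BT474/Lap. BT474 stood above the other 3 samples and BT474/Lap below them, while the 2 SkBr3 samples did not differ beyond the model error. The log2 fold change was 0.05 ± 0.20 in SkBr3/Lap, with values from -0.09 to 0.21 over the settings tried, and -3.06 ± 0.20 in BT474/Lap, 8.34-fold lower. In the parental pair, DUSP4 was 3.84-fold higher in BT474 than in SkBr3, and in the resistant pair it was 2.25-fold lower in BT474/Lap than in SkBr3/Lap.

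DUSP6, a cytoplasmic phosphatase selective for ERK, had a level of 9.19% in SkBr3 and 22.5% in SkBr3/Lap, against 292% in BT474 and 69.1% in BT474/Lap. Both BT474 samples were above both SkBr3 samples, and each neighbor in this order differed by more than 2 model errors. The log2 fold change was 1.29 ± 0.21 in SkBr3/Lap (2.45-fold higher) and -2.08 ± 0.20 in BT474/Lap (4.22-fold lower). The parental lines differed by 31.7-fold and the clones by 3.07-fold, so that the levels of the resistant lines lay between those of the parental lines. A change of at least 2-fold up in SkBr3/Lap and down in BT474/Lap was found for 1.26% of all genes.

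DUSP5, a nuclear phosphatase of ERK, had a level of 15.99% in SkBr3 and 87.9% in SkBr3/Lap, against 21.6% in BT474 and 10.9% in BT474/Lap. SkBr3/Lap stood apart above the other 3 samples, with a log2 fold change of 2.46 ± 0.21, or 5.497-fold. In BT474/Lap the log2 fold change of -0.99 ± 0.21 was just short of 2-fold, and it passed 2-fold under 2 of the 11 settings, scaling by the median and quantile normalization. It ranged from -1.21 to -0.88 over the settings, some of which could not change a gene with a single probe.

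Of the Sprouty genes, SPRY2 had a level of 7.97% in SkBr3 and 27.2% in SkBr3/Lap, against 11.2% in BT474 and 11.7% in BT474/Lap. The value in SkBr3/Lap was the highest, 3.41-fold above that in SkBr3 (log2 fold change 1.77 ± 0.22). The 2 BT474 samples did not differ beyond the model error, with a log2 fold change of 0.07 ± 0.21 that lay between -0.15 and 0.17 over the settings.

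SPRY4 had a level of 12.9% in SkBr3 and 3.38% in SkBr3/Lap, against 9.76% in BT474 and 2.62% in BT474/Lap. Both resistant clones were below both parental lines, and neither the 2 parental lines nor the 2 clones differed from each other by more than 2 model errors. SPRY4 was 3.82-fold lower in SkBr3/Lap (log2 fold change -1.93 ± 0.22) and 3.73-fold lower in BT474/Lap (-1.90 ± 0.24). With normexp background correction and quantile normalization the 2 values were smaller, -1.07 and -1.18. A change of at least 2-fold down in both clones was found for 1.46% of all genes.

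SPRY1 had a level of 30.1% in SkBr3 and 34.4% in SkBr3/Lap, against 17.3% in BT474 and 4.75% in BT474/Lap. The 2 SkBr3 samples did not differ beyond the model error (log2 fold change 0.19 ± 0.20), and BT474/Lap was 3.65-fold below BT474 (log2 fold change -1.87 ± 0.22). Between the clones SPRY1 was 7.25-fold lower in BT474/Lap than in SkBr3/Lap.

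Each SPRED gene had 2 probes, of which 1 passed the filter. SPRED1, the gene mutated in Legius syndrome whose product brings neurofibromin to RAS, had a level of 11.1% in SkBr3 and 8.57% in SkBr3/Lap, against 9.23% in BT474 and 2.49% in BT474/Lap by its brighter probe (A_24_P107859). BT474/Lap stood below the other 3 samples, with a log2 fold change of -1.89 ± 0.24 (3.71-fold lower), while SkBr3/Lap differed from SkBr3 by -0.38 ± 0.21. With normexp correction and quantile normalization SPRED1 was at -1.07 in BT474/Lap, close to the 2-fold limit. The dimmer SPRED1 probe (A_23_P54460) was not well above background in BT474/Lap, at least 5.44-fold lower than in BT474, and its log2 fold change in SkBr3/Lap was -0.69 ± 0.26.
SPRED2 had a level of 25.2% in SkBr3 and 34.2% in SkBr3/Lap, against 37.3% in BT474 and 22.2% in BT474/Lap by its brighter probe (A_32_P225854). Its range over the 4 samples was narrow, and neither clone was 2-fold from its parental line (log2 fold change 0.44 ± 0.21 for SkBr3/Lap, -0.75 ± 0.21 for BT474/Lap). The other SPRED2 probe was near the lower end of detection on the 4 arrays, from 0.901% to 1.62%, and not well above background in BT474. Its log2 fold change in SkBr3/Lap was -0.84 ± 0.40, opposite in sign to that of the brighter probe.

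Both ETV4 probes passed the filter, through SkBr3/Lap alone, which favors higher values in that sample. The brighter probe (A_23_P431776) had a level of 3.64% in SkBr3, 6.43% in SkBr3/Lap and 5.41% in BT474, and in BT474/Lap it was 0.651%, not well above background. ETV4 was therefore at least 6.20-fold lower in BT474/Lap than in BT474 by this probe, where the bound takes the dimmest signal that the scanner software set well above background. The other ETV4 probe (A_24_P416346), measured on all 4 arrays, had a level of 2.23% in SkBr3 and 6.44% in SkBr3/Lap, against 3.999% in BT474 and 1.28% in BT474/Lap. The probes had the same signs in both lines, with log2 fold changes in SkBr3/Lap of 0.82 ± 0.26 for the brighter and 1.53 ± 0.31 for the other probe, the first short of 2-fold and the second past it. The second probe was 3.12-fold lower in BT474/Lap (log2 fold change -1.64 ± 0.34). With normexp correction and quantile normalization the brighter probe was at -0.83 in BT474/Lap, short of 2-fold, and with 16 added to the signal at -2.08.
ETV5 did not pass the filter, and its 2 probes were not well above background in SkBr3, SkBr3/Lap or BT474/Lap. In BT474, 1 of the 2 probes (A_32_P30649) was measured, at 1.89%, against 0.829% in BT474/Lap, which gives a bound of at least 2.17-fold lower in the clone.

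**Figure D2:**
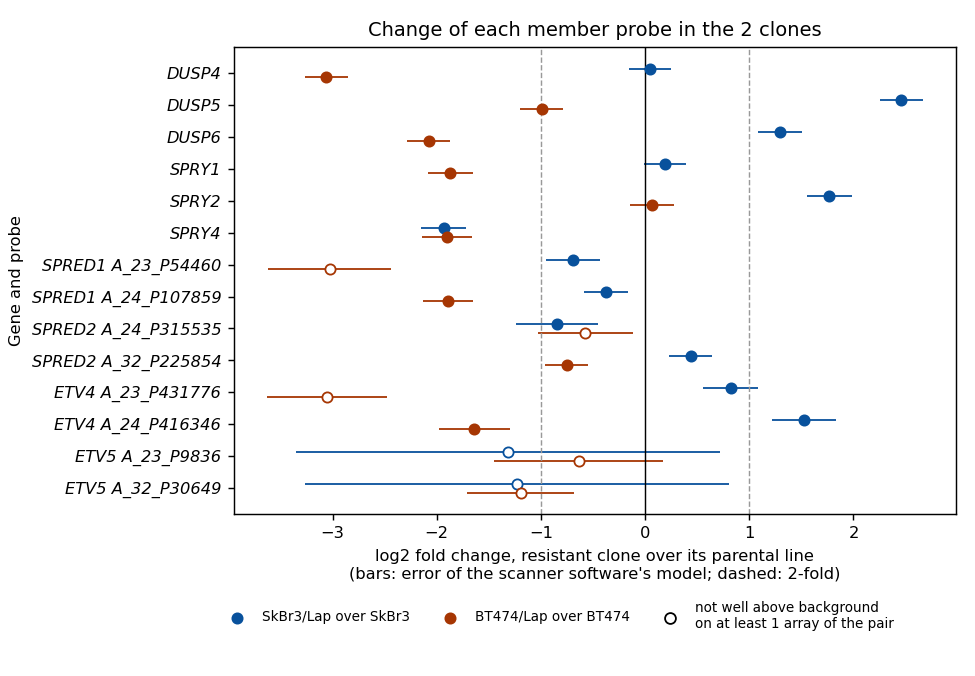
Log2 fold change of each of the 14 probes (y axis) in SkBr3/Lap over SkBr3 (blue) and BT474/Lap over BT474 (brown) on the x axis, with bars for the error of the scanner software's model and open points where at least 1 signal of the pair was not well above background. DUSP5, DUSP6, SPRY2 and the ETV4 probe A_24_P416346 lie to the right of the 2-fold line in SkBr3/Lap, and the points of SPRY4 fall together at -1.93 and -1.90.

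The median over the 9 genes that passed the filter was a log2 fold change of 0.44 for SkBr3/Lap (range -1.93 to 2.46) and of -1.89 for BT474/Lap (range -3.06 to 0.07). The medians over all 12159 genes were -0.06 and -0.09. In BT474/Lap 8 of the 9 genes were below 0 and in SkBr3/Lap 7 of the 9 were above 0, as the scatter of the 2 clones shows. Of these 7, DUSP4 and SPRY1 did not differ from 0 beyond the model error, and ETV4 passed the filter through SkBr3/Lap alone. The share of all genes on either side of 0 was not counted, so these counts by sign are a description only. Between the parental lines, DUSP4 and DUSP6 were at least 2-fold higher in BT474 and 0 of the 9 were at least 2-fold lower, against 19.8% and 19.2% of all genes. Between the clones 6 of the 9 (DUSP4, DUSP5, SPRY1, SPRY2, SPRED1 and ETV4) were at least 2-fold lower in BT474/Lap than in SkBr3/Lap and 1 (DUSP6) was at least 2-fold higher, against 24.3% and 23.6% of all genes. The comparisons between lines share samples with those within lines and add no independent evidence.

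**Figure D3:**
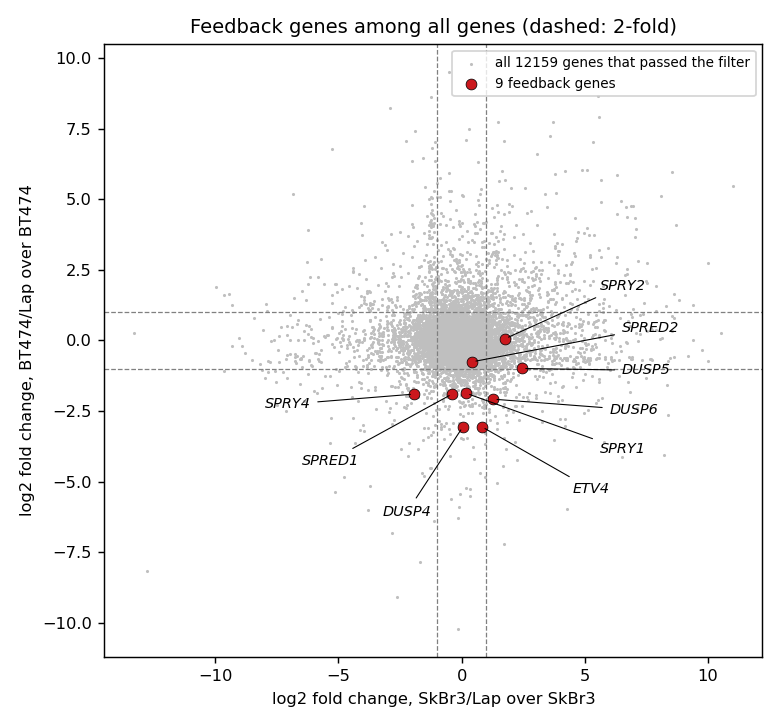
Log2 fold change in SkBr3/Lap (x axis) against that in BT474/Lap (y axis) for all 12159 genes that passed the filter (gray) and the 9 feedback genes among them (red), with dashed lines at 2-fold. DUSP6 lies at 1.29 and -2.08, SPRY4 at -1.93 and -1.90, and 6 of the 9 genes lie below the lower horizontal line.

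Resistant and parental samples were also compared over both lines with limma, the line as a block and the 2 lines standing in for replicates. Of 25927 probes, 0 had a Benjamini-Hochberg adjusted p below 0.05 and 900 (3.47%) had an unadjusted p below 0.05. Among the 10 probes of the feedback genes that entered the fit, SPRY4 had the lowest unadjusted p (0.0137 by limma, adjusted p = 1.00) and a mean log2 fold change of -1.92, lower in 2 of 2 clones. The filter kept SPRY4 through its 2 parental samples alone, which favors lower values in the clones. Its direction and p here are therefore no independent support. For DUSP6 the mean was -0.39 (limma adjusted p = 1.00) with the clones differing in sign.

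Other genes of the pathway were counted from lists of known members. Of 7 other MAP kinase phosphatases, 6 could be measured, and each clone had 1 that was higher by 2-fold or more, DUSP1 in SkBr3/Lap (log2 fold change 1.91, and -0.51 in BT474/Lap) and DUSP2 in BT474/Lap (2.02, and -0.23 in SkBr3/Lap). None of the 6 was at least 2-fold lower in a clone. A dimmer DUSP2 probe that passed the filter had a log2 fold change of 2.01 in BT474/Lap. In SkBr3 it was not well above background, and in SkBr3/Lap it was at least 1.56-fold higher, opposite in direction to the brighter probe. DUSP1 is a stress- and growth factor-induced phosphatase of several MAP kinases, and DUSP2 its relative known from lymphocytes. The medians of this list were -0.14 in SkBr3/Lap and -0.34 in BT474/Lap. Of the other Sprouty, SPRED and PEA3 genes SPRY3, SPRED3 and ETV1, 0 had a probe that passed the filter.

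Among 10 other transcripts that follow ERK, 8 passed the filter, of which each clone had 3 higher and 1 lower by 2-fold or more. PHLDA1, a pleckstrin homology domain protein and another marker of ERK output, was 5.41% in SkBr3 and 126% in SkBr3/Lap, against 17.1% in BT474 and 8.88% in BT474/Lap, 23.3-fold higher in SkBr3/Lap. Of the other 3 PHLDA1 probes, log2 fold changes in SkBr3/Lap were 0.26 and 3.50 for those measured on both arrays, and the last was at least 4.10-fold higher. EGR1, an immediate early transcription factor, was lower in both clones (log2 fold changes -2.82 and -2.96), and FOS, another immediate early factor, was higher in both (2.05 and 1.46). EPHA4, an ephrin receptor, was higher in BT474/Lap (2.63) and at -0.13 in SkBr3/Lap. The medians of this list were 0.68 in SkBr3/Lap and 0.39 in BT474/Lap, where that of the feedback genes was -1.89.

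Of 16 genes of the cascade from adaptors to ERK, 14 passed the filter, and those past 2-fold in SkBr3/Lap included GAB1, an adaptor (log2 fold change 1.67), and MAP2K1, which encodes MEK1 (1.48). In BT474/Lap GAB1 was at 0.27 and MAP2K1 at 0.28, and 0 of the 14 passed 2-fold. Among 8 other brakes of the pathway, 7 passed the filter. ERRFI1, an inhibitor of EGFR family kinases, was higher in SkBr3/Lap (1.98, and -0.26 in BT474/Lap), LRIG1 and CBL, which promote loss of these receptors, were lower there (-1.58 and -1.01), and DAB2IP, a RAS GTPase-activating protein, was higher in BT474/Lap (1.09). Of the repressors, CIC was within 2-fold in both clones (0.38 and 0.11), and its partner ATXN1 was 1.14 in SkBr3/Lap and -1.04 in BT474/Lap.
Of the receptors that lapatinib inhibits, EGFR was 2.49-fold higher in SkBr3/Lap and lower in BT474/Lap (log2 fold changes 1.32 and -1.34). ERBB2, the gene of HER2, had log2 fold changes of -1.90 and -0.65.

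**Figure D4:**
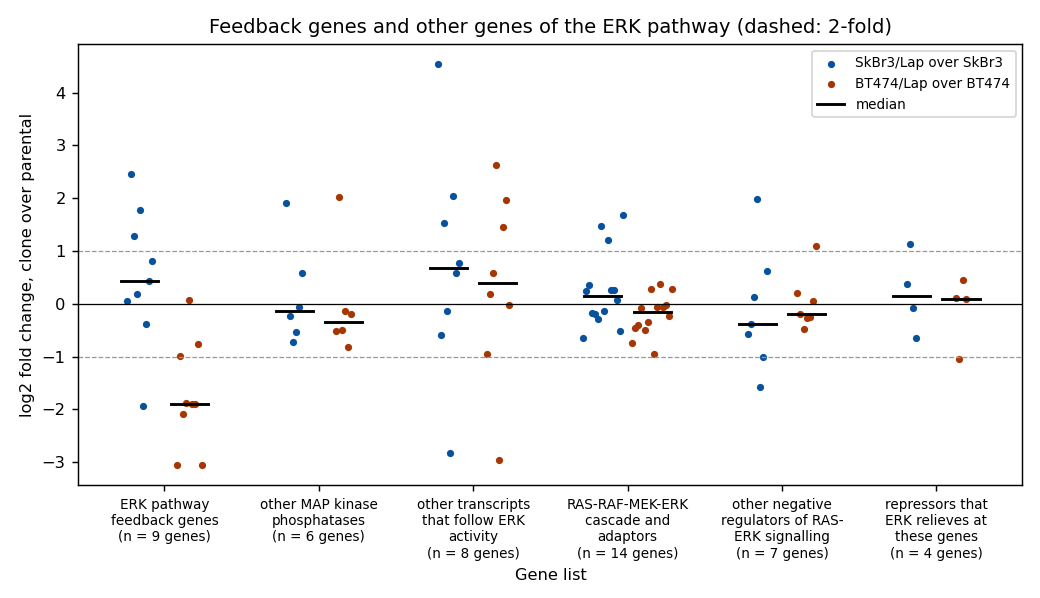
Log2 fold change (y axis) of the genes that passed the filter in the feedback genes and 5 other lists of the ERK pathway (x axis), the ERBB receptors not drawn, in SkBr3/Lap (blue) and BT474/Lap (brown), with black bars for medians and dashed lines at 2-fold. The median of the feedback genes in BT474/Lap lies at -1.89, and those of the 5 other lists drawn lie, in either clone, between -0.37 and 0.68.

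By their pattern over the 4 arrays, the genes closest to DUSP6 among 10909 others well above background on all arrays were DDIT3, PHGDH and NKAIN1, at distances of 0.59, 0.64 and 0.71 on the log2 scale after each gene's mean was subtracted. DDIT3, for example, had levels of 26.0% in SkBr3 and 47.3% in SkBr3/Lap, against 506% in BT474 and 117% in BT474/Lap. With 4 arrays this likeness describes the samples and says nothing of shared control. The closest pair of feedback genes was SPRY1 and SPRED1, at a distance of 0.90.

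All 4 arrays were of 1 color and came from 2 slides, the array of SkBr3/Lap on a slide of its own and the other 3 on a shared slide, so that slide and resistance cannot be told apart for SkBr3, while the BT474 pair shared a slide. The 75th percentile of the signals was between 1115 and 2074, 66.6% to 74.0% of the probes were well above background, and 0 spots were saturated. Of the 6 luminal epithelial markers, KRT8, KRT18, KRT19, EPCAM and ERBB2 were well above background on all 4 arrays and CDH1 in the BT474 samples alone. Markers of other cell types were not equal between samples. Of 5 fibroblast markers with a probe, 0 were well above background in SkBr3, BT474 and BT474/Lap and 2 (COL3A1 and PDGFRB) in SkBr3/Lap, and their summed level was 2.07%, 1.88%, 1.22% and 20.8%, respectively. The summed level of 4 endothelial markers was 17.3% in SkBr3 and 67.5% in SkBr3/Lap, against 78.5% in BT474 and 39.5% in BT474/Lap, and that of 5 leukocyte markers was 80.9%, 55.0%, 15.7% and 13.1%, with the defining marker PTPRC not well above background on any array. Their part in the results of the feedback genes was not tested, and fewer cells of a kind and less RNA per cell cannot be told apart in these samples.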

How the data were processed

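Total RNA from 4 samples was labelled with Cy3 and hybridized to Agilent Human Whole Genome 4 × 44 K arrays. The authors deposited Feature Extraction output (version 10.1.1.1 per the file headers, while the methods name an earlier version, a choice of 2 dyes and LOWESS), and its processed signal is a background-corrected intensity not scaled between arrays. A table of log2 values was deposited as well, centered for each probe. Its differences between arrays matched those of the processed signals to a median of less than 0.001 (largest deviation 0.62), apart from a shift per array. The origin of this shift was not stated, but its size was close to that of the scaling used here. From the deposited table, the median log2 change of the probes that passed the filter was -0.102 in SkBr3/Lap and -0.051 in BT474/Lap. With the scaling used here it was -0.103 and -0.050. Column medians of that table were 0.12, -0.20, 0.11 and -0.05 for SkBr3, SkBr3/Lap, BT474 and BT474/Lap.

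Repeated spots were averaged on the log2 scale, and values are relative to the 75th percentile of the 41000 non-control probes of an array. Probes under a signal of 100 on all 4 arrays were left out (25927, or 63.2%, stayed). RefSeq accessions (GRCh38.p14) named 23680 probes, and of several probes the brightest on average stood for the gene. A probe counted as well above background if the software marked 50% or more of its spots so. Where 1 signal of a pair was not, the fold is a bound, taken against the dimmest signal so marked on that array or the probe's own if higher. The number of arrays limits the precision, and with 1 array per group no test of a single clone was possible. Limma 3.58.1 in R 4.3.3 was fitted over both lines with 1 residual degree of freedom, and was tested on simulated data. The members and lists were chosen with earlier results of these data known. From each other list up to 4 genes were named, those with the largest change past 2-fold in a clone and well above background on both arrays of that pair. A result for 1 gene of the cascade list is not reported here. The motifs were chosen after the data were seen. Alternatives were other scalings, normexp with an offset of 50, the deposited table, 16 added to the signal, other filters, outlier spots left out, a 3-fold threshold, the mean of probes, and other blocks in limma. Since the deposited table was scaled almost as here, it is hardly a separate check of the processing. Normexp used median pixel intensities. Python 3.11.15, numpy 2.4.6 and pandas 2.3.3 were used.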

Additional observations from a re-analysis of the deposited data

Results flagged for a closer look

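DUSP6 was past 2-fold in opposite directions in the 2 clones, at 1.29 (SkBr3/Lap) and -2.08 (BT474/Lap) on the log2 scale. So was the dimmer of the 2 ETV4 probes, at 1.53 and -1.64, while the brighter ETV4 probe was at 0.82 in SkBr3/Lap. Both ETV4 probes passed the filter through SkBr3/Lap alone, which favors higher values there. Their rise in SkBr3/Lap is therefore no independent support. With 1 array per group the difference between the lines was not tested.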

How the results depend on the processing

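No paired analysis was possible because each group held 1 sample and so no replicate numbers to pair within a line. The limma fit over both lines paired each clone with its parental sample through the line as a block. Across the alternatives the counts of feedback genes higher in SkBr3/Lap and lower in BT474/Lap were 2 to 4 and 5 to 7. Without the filter, which added ETV5, the genes at least 2-fold lower in SkBr3/Lap became 2, those past 2-fold in the same direction in both clones became 2, and the median in SkBr3/Lap became 0.31, but ETV5 lay near background on both SkBr3 arrays. Subtracting each array's median instead gave medians of 0.60 (SkBr3/Lap) and -2.10 (BT474/Lap). It moved the median of all kept probes from -0.10 to 0.05 and from -0.05 to -0.26, and the members' median stayed 0.54 above it in SkBr3/Lap and at -1.84 from it in BT474/Lap. In BT474/Lap the median was -2.15 with quantile normalization, -1.07 with normexp correction before it, and -1.64 with 16 added to the signal. No member past 2-fold changed sign under the alternatives. Of the 18 values of single members, all 18 moved by more than the spread between repeated spots when scaled by the median, 14 with normexp and 10 with quantile normalization alone. In limma 0 probes passed an adjusted p of 0.05 without a block, without the filter or with quantile normalization. The unadjusted p by limma was below 0.05 for 308, 2043 and 911 probes, respectively. A fit with the slide as a block was also run, but SkBr3/Lap was alone on its slide. That fit therefore set BT474/Lap alone against the parental samples, and its counts are not given. Signals of ETV5, of the dimmer SPRED2 probe and of ETV4 in BT474/Lap were close to background, which limits what can be said of them.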
